A study of Homo sapiens with 6 samples.

Results

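Metallothioneins and their zinc response were described here by 9 genes, taken by symbol from the expression table of 17039 genes. They comprise 7 genes of the MT1 and MT2 subfamilies (MT1A, MT1E, MT1F, MT1G, MT1M, MT1X and MT2A), the transcription factor gene MTF1 and the zinc exporter gene SLC30A1, and all 9 had a row. MDA-MB-231 is an established human triple-negative breast cancer cell line, and 231-BR is its brain-seeking variant. Poly(A) RNA of 3 libraries of each line was sequenced on the BGISEQ-500 platform with paired reads, and the expression of each gene was given as FPKM, the fragments mapped to it scaled to the length of its transcript and to all fragments mapped in the library. Both lines were grown in DMEM with 10% fetal bovine serum and 1% penicillin-streptomycin, and the medium of 231-BR cells also held the antibiotic G418, so that line and G418 cannot be told apart. Each group is a single line. The study calls its replicates parallel and the series calls its samples independent, and neither says whether they were separate cultures. The p-values therefore measure only the spread between these samples. In the cell line field of the labels, replicates 2 and 3 are written 232-BR, 233-BR, MDA-MB-232 and MDA-MB-233, and the libraries were grouped by their titles.

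Metallothioneins are small, cysteine-rich proteins that bind zinc and copper, buffer the free metal in the cell and also bind cadmium. The MTF1 protein senses free zinc with its zinc fingers and binds metal response elements (MREs) in the promoters of metallothionein genes and of SLC30A1, whose product ZnT1 exports zinc across the plasma membrane. Glucocorticoids and oxidants also induce metallothioneins, and the human genes lie in a cluster on chromosome 16.

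The summed FPKM of all genes was 465020 to 496420 per library, with 11166 to 11178 genes at 1 FPKM or more in 231-BR libraries, against 10785 to 10806 for MDA-MB-231. The depth of each library is unknown, since the values are FPKM. VIM was at 2273 to 2566 FPKM, CD44 at 177 to 253 and EGFR at 30.0 to 94.1. The estrogen receptor gene ESR1 was at 1.08 FPKM or less, PGR at 0.07 or less and CDH1 at 0.03 or less. ERBB2, at 4.75 to 10.23 FPKM, and EPCAM, at 4.44 to 9.31 FPKM, were not as low. Each of 10 markers of leukocytes, endothelium, astrocytes, neurons and hepatocytes was at 0.48 FPKM or less in every library.

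The promoters of 4 of the 9 genes were found in the RefSeq table used here (GRCh38.p14). The letters TGCACNC or TGCGCNC, the core of the MRE, were searched on both strands in the 250 bases before the start of the gene, and 24.8% of 35116 promoters held at least 1 match. The 3 promoters with a match are shown because the number of MREs separates them, and the capitals mark each MRE. The MT2A promoter is chr16:56608334-56608583 on the plus strand, the MT1X promoter is chr16:56682220-56682469 on the plus strand, and the SLC30A1 promoter is chr1:211579162-211579411 on the minus strand.
MT2A: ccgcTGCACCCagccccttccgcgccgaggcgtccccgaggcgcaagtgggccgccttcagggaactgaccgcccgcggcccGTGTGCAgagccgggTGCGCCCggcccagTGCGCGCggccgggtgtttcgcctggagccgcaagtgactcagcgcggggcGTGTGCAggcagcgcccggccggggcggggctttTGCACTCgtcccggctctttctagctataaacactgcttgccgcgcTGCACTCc
MT1X: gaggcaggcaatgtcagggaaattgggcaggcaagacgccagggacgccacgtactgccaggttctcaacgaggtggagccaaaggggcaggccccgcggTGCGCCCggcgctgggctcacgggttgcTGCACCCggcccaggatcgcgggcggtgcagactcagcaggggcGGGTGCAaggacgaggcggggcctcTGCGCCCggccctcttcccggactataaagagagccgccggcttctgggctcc
SLC30A1: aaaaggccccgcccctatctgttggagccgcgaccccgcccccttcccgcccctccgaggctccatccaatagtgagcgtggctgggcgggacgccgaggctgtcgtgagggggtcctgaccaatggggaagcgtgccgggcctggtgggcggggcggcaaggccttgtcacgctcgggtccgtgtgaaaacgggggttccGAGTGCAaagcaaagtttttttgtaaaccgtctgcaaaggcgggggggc

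The MT2A window held 7 MREs, from 246 to 2 bases before the start, and at least 7 were found in 0.0313% of promoters. The MT1X window held 4 MREs between 150 and 47 bases before the start, and 0.370% of promoters held at least 4. A single MRE was found in the SLC30A1 window, 49 to 43 bases before the start. None was found in the MTF1 window. The MT2A window also held the AP1 letters TGANTCA at 104 to 98 bases before the start, which 6.57% of promoters held and the other 3 windows did not. These letters overlap a match of the antioxidant response element TGACNNNGC, found in 10.9% of promoters and also in the MT1X and SLC30A1 windows. A match is a description of the letters, and binding was not measured.

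The 9 genes covered a wide range of levels, and 3 metallothioneins carried nearly all of the family's FPKM. MT2A and MT1E were lower in 231-BR cells, MT1X was higher, and the 4 other metallothionein genes were at 1.44 FPKM or less in every library. SLC30A1 was modestly higher in 231-BR cells, and MTF1 did not pass the test. Under quantile normalization, which gives every library the same distribution of values, MT2A and SLC30A1 did not pass either. MT1E passed there, but its log2 fold change shrank from -0.23 to -0.06.

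**Figure D1:**
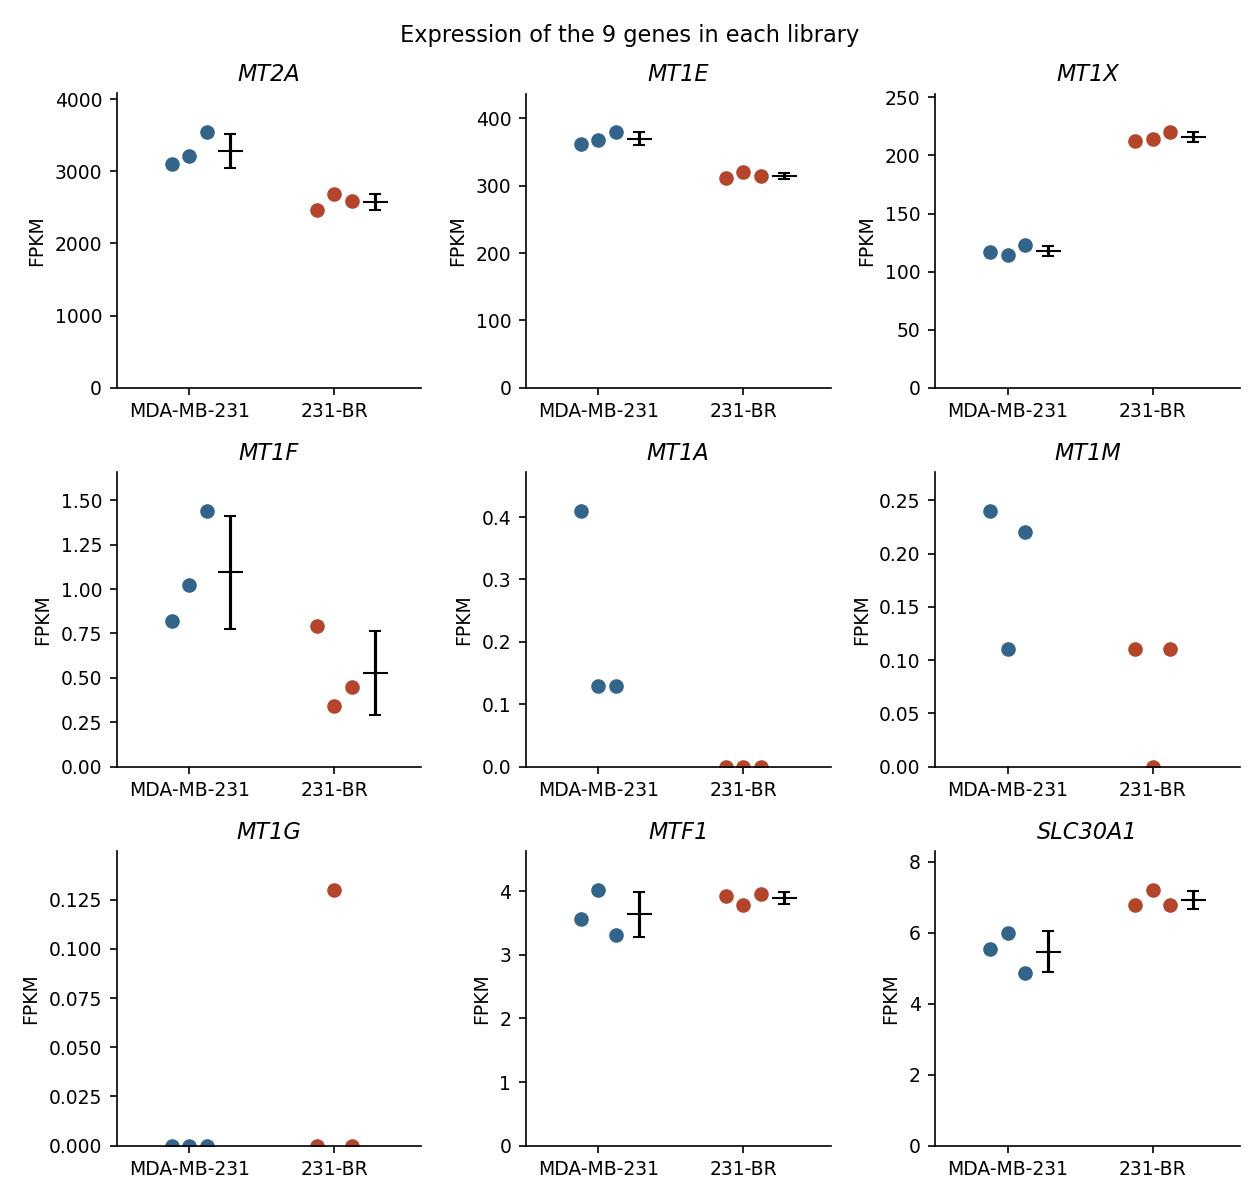
Expression of the 9 genes in FPKM (vertical axes, linear, from 0) in the 3 libraries of MDA-MB-231 (blue) and of 231-BR (red), with the mean and SD as black bars where every library was above 0. No library of one line lies within the range of the other for MT2A, MT1E, MT1X, MT1F, MT1A and SLC30A1. Under quantile normalization the differences of MT2A and SLC30A1 did not pass the test.

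MT2A encodes the main metallothionein of most human tissues. It was at 2459, 2681 and 2594 FPKM in 231-BR replicates 1 to 3 and at 3096, 3208 and 3545 FPKM in MDA-MB-231 replicates 1 to 3. Every 231-BR library was below every MDA-MB-231 library, and MT2A ranked between 5 and 10 among the 17039 genes in each library. The mean of 231-BR was 2578 ± 112 FPKM (SD, n = 3), against 3283 ± 233 FPKM (SD, n = 3) for MDA-MB-231. The log2 fold change of FPKM + 0.1 between the lines was -0.35 (SE 0.049, limma, adjusted p = 8.8e-05), or 0.785 times on the linear scale. Under quantile normalization it was -0.07 (adjusted p = 0.078). In bulk RNA, fewer cells with a transcript and less of it per cell cannot be told apart.

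MT1E, which some cell types express and others do not, was the next most abundant of the family. It was at 310.8, 319.7 and 314.8 FPKM in 231-BR, against 362.1, 368.1 and 379.96 FPKM in MDA-MB-231 cells. The libraries did not overlap, and the spread within a line was small (SD 4.47 and 9.09 FPKM, n = 3). The log2 fold change was -0.23 (SE 0.024, adjusted p = 9.2e-06), and it was -0.06 under quantile normalization (adjusted p = 0.017).

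MT1X was the member with the largest difference among those above 1 FPKM in both lines, and it moved the other way. It was at 212.3, 214.4 and 220.3 FPKM in 231-BR, against 116.8, 113.9 and 122.7 FPKM in MDA-MB-231 cells. All 3 libraries of 231-BR were higher than all 3 of MDA-MB-231, with means of 216 ± 4.14 and 118 ± 4.45 FPKM (SD, n = 3). The log2 fold change was 0.87 (SE 0.030, adjusted p = 2.9e-09), or 1.83 times, and its size was at percentile 81.0 of all genes tested. Over 14 other settings of the processing it was 0.79 to 0.97, with an adjusted p of at most 1.0e-05.

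MT1F, another zinc-inducible member, was low. It was at 0.79, 0.34 and 0.45 FPKM in 231-BR, against 0.82, 1.02 and 1.44 FPKM in MDA-MB-231 cells. The libraries did not overlap, but 231-BR replicate 1 and MDA-MB-231 replicate 1 differed by little. The log2 fold change was -0.96 (SE 0.261, adjusted p = 0.0067), and it was -0.46 with a pseudocount of 1 (adjusted p = 0.0058), so the size of the change of so low a gene depends on the pseudocount.

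MT1A was listed at 0 in all 3 libraries of 231-BR and at 0.41, 0.13 and 0.13 FPKM in MDA-MB-231 cells. No fold is given against libraries at 0, and without MDA-MB-231 replicate 1 its mean was too low for it to be tested. MT1M was at 0.11, 0 and 0.11 FPKM in 231-BR, against 0.24, 0.11 and 0.22 FPKM in MDA-MB-231 cells. These libraries overlapped, and the adjusted p was 0.046 as reported, 0.15 without 231-BR replicate 2, 0.14 without MDA-MB-231 replicate 1 and 0.13 without MDA-MB-231 replicate 3. The call was lost in 6 of 13 alternatives in all, also with a pseudocount of 0.01 (adjusted p = 0.086), without a filter (0.095) and with eBayes without the trend (0.086). MT1G was at 0.13 FPKM in 231-BR replicate 2 and listed at 0 in the 5 other libraries, and it was too low to be tested. MT1A and MT1M had enough FPKM to be tested only through MDA-MB-231 cells, so their tests support nothing.

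MTF1, the zinc-sensing factor, was at 3.93, 3.78 and 3.96 FPKM in 231-BR, against 3.57, 4.02 and 3.31 FPKM in MDA-MB-231 cells. The highest and the lowest value both belonged to MDA-MB-231, so the lines overlapped. The log2 fold change was 0.10 (SE 0.076, adjusted p = 0.25), and it turned to -0.16 under quantile normalization (adjusted p = 0.069). A change of its RNA was therefore not detected, and the activity of the protein was not measured.

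SLC30A1, the exporter, was at 6.77, 7.21 and 6.77 FPKM in 231-BR, against 5.54, 6.0 and 4.87 FPKM in MDA-MB-231 cells. The lowest 231-BR library was above the highest of MDA-MB-231. The mean was 6.92 ± 0.254 against 5.47 ± 0.568 FPKM (SD, n = 3). The log2 fold change was 0.34 (SE 0.074, adjusted p = 0.0019), and it was 0.15 under quantile normalization (adjusted p = 0.085).

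Of the 9 genes 8 were tested, of which 7 had an adjusted p under 0.05, where 77.3% of the 13465 genes tested did. Of the 8, 2 were higher in 231-BR cells (MT1X and SLC30A1), against 44.4% of all genes tested, and 5 were lower, against 32.9%. In 6 of the 8 all libraries of one line lay above those of the other, against 78.4% of all genes. Nothing is read from these counts, since MT1A and MT1M, among the 5 lower, could be tested only through the line in which they are high. Of the 5 genes with a mean of at least 1 FPKM in both lines 4 passed, of which MT1X and SLC30A1 were higher and MT2A and MT1E lower. The study called a gene differentially expressed (DEG) at an FPKM of at least 1, an adjusted p under 0.05 and an absolute log2 fold change over 1, applied here to the mean of both lines. By these criteria 0 of the 8 tested genes were DEGs, with 7 at an unadjusted p under 0.05 in limma, the only tool run. Over all genes tested 6.45% were DEGs, 4.68% higher and 1.77% lower in 231-BR cells. The study made its own calls with DESeq2, so the DEGs and shares given here are not those of the study.

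Over all genes tested the log2 fold change had a median of 0.08, and other scalings moved it, by -0.08 for median-of-ratios scaling and by -0.14 for quantile normalization. Relative to this median, MT1X was at 0.80 as deposited, 0.79 under median-of-ratios scaling and 1.03 under quantile normalization. MT2A was at -0.42, -0.43 and -0.01 in the same order, and MT1E at -0.31, -0.31 and 0.001. SLC30A1 was at 0.26, 0.26 and 0.21. For MT1X the direction and the call held under each of these scalings. The differences of MT2A and MT1E came close to that of the median gene under quantile normalization. Quantile normalization sets the value of a gene by its rank. MT2A was among the 10 highest genes in every library, and MT1E ranked between 178 and 192. Why their differences shrank was not tested.

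**Figure D2:**
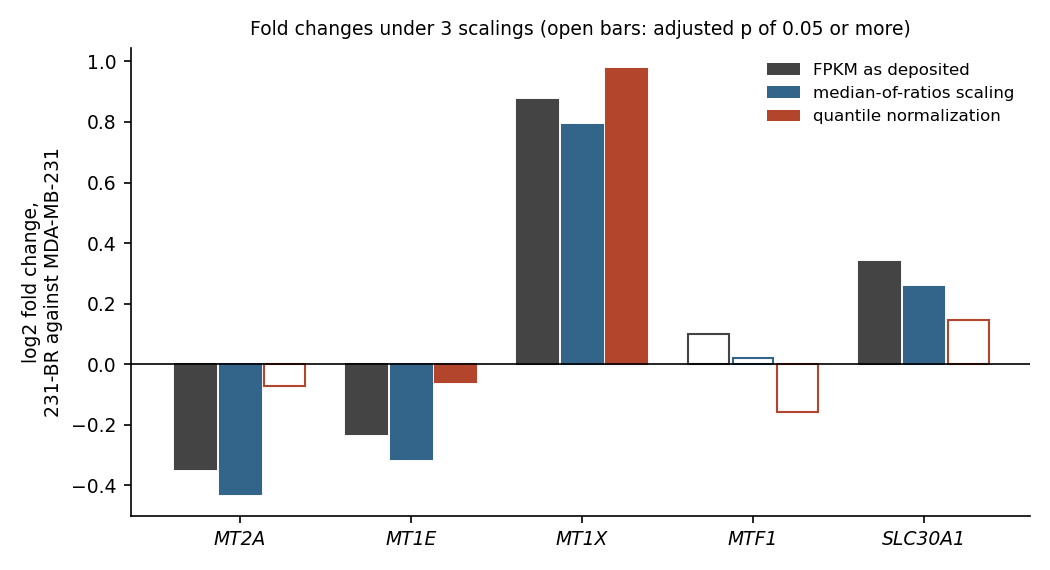
Log2 fold change of 231-BR against MDA-MB-231 (vertical axis, FPKM + 0.1) of the 5 genes with a mean of at least 1 FPKM in both lines, under 3 scalings (grey, FPKM as deposited; blue, median-of-ratios scaling; red, quantile normalization). Filled bars have an adjusted p under 0.05. MT1X stays between 0.79 and 0.97, the bars of MT2A and SLC30A1 are open under quantile normalization, and MTF1 changes sign there.

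The sum of the 7 metallothionein genes was taken as well, since they are similar in sequence. It was 2983, 3216 and 3129 FPKM for 231-BR, against 3577, 3691 and 4049 FPKM for MDA-MB-231. Each 231-BR library was lower than each MDA-MB-231 library, with a log2 difference of -0.28 (exact 2-sided permutation p = 0.1, the smallest that 3 against 3 allows). The family held 0.662 ± 0.0199% of the summed FPKM of all genes in 231-BR libraries, against 0.766 ± 0.0433% for MDA-MB-231 (SD, n = 3). Under quantile normalization the log2 difference of the sum was -0.02 (exact p = 0.8).

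The make-up of the sum was compared between the lines, and the shares of the genes in a library depend on one another. With 3 libraries of each line no exact p could fall below 0.1, so no share could pass the test. MT2A was 82.9 ± 0.472% of the sum in 231-BR, against 87.0 ± 0.495% in MDA-MB-231 (SD, n = 3), and MT1X was 6.94 ± 0.241% and 3.13 ± 0.124%. For both genes the libraries did not overlap (exact p = 0.1, adjusted p = 0.23 over 7 genes). MT1E was 10.1 ± 0.248% and 9.83 ± 0.391%, which overlapped (exact p = 0.5). The FPKM of MT2A was 11.6, 12.5 and 11.8 times that of MT1X in 231-BR, against 26.5, 28.2 and 28.9 times in MDA-MB-231. A ratio within a library does not depend on a scaling factor, and the log2 ratio of MT1X to MT2A was higher in 231-BR cells by 1.22 (exact p = 0.1). MT1E was 1.46 ± 0.0313 times MT1X in 231-BR, against 3.14 ± 0.0770 times in MDA-MB-231 (SD, n = 3). MT2A was 8.18 ± 0.243 and 8.86 ± 0.410 times MT1E, a smaller difference in which the libraries did not overlap either (0.12 as a log2 ratio of MT1E to MT2A, exact p = 0.1). These ratios were chosen after the values of the genes had been seen. MT1X was higher and MT2A lower in every 231-BR library. The exact p of the ratio of MT1X to MT2A was thus fixed by the single genes and adds no support. The same holds for the share of MT1X, since the sum was lower in every 231-BR library.

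**Figure D3:**
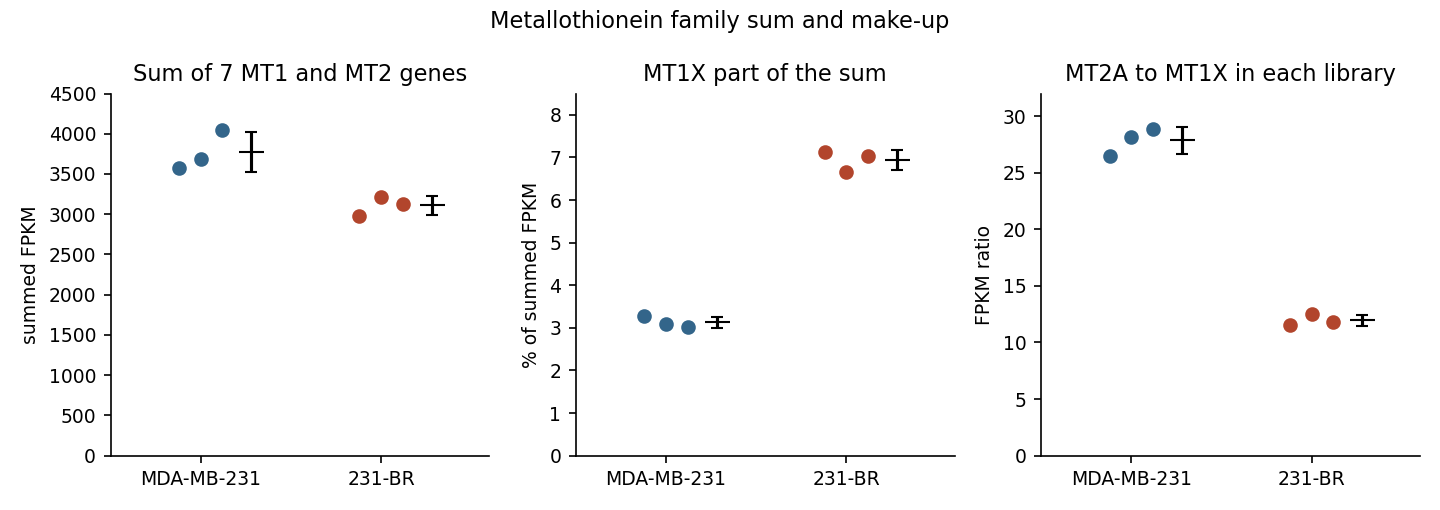
Summed FPKM of the 7 MT1 and MT2 genes (left), the percent of that sum that was MT1X (middle) and the ratio of MT2A to MT1X in FPKM (right), in each library of MDA-MB-231 (blue) and 231-BR (red), with the mean and SD as black bars. The ratio is 26.5 to 28.9 in MDA-MB-231 and 11.6 to 12.5 in 231-BR.

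Reads can be assigned to the wrong copy where paralogs are alike. No stretch of 100 bases, the length of a read, of the coding transcripts of the 7 metallothionein genes in GENCODE occurs in another of the 7, and the longest run shared exactly was 96 bases, between MT1G and MT1X. Only exact matches were searched, so the search cannot show that each read was assigned to the right gene. Of the 723 such stretches of MT1X, 223 (30.8%) also occur in the transcript AC026461.1, which overlaps MT1X, and the reads of these were not told apart here. The shortest metallothionein transcript was 232 bases long and the longest 829, against 7972 for MTF1 and 5474 for SLC30A1, and levels between genes were compared only as FPKM, which is per length.

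Genes beside the members on the chromosome were compared with them. The 40 tested genes nearest to the metallothionein cluster, 20 on either side, had a median log2 fold change of 0.06, close to the 0.08 of all genes tested. In the order of the genome, NUDT21 (0.15), OGFOD1 (0.20) and BBS2 (1.00) stood nearest on one side and NUP93 (0.06), HERPUD1 (0.18) and NLRC5 (0.54) on the other. Of the 40 neighbours 20 were higher and 16 lower with an adjusted p under 0.05, against 44.4% and 32.9% of all genes tested. MT1X was at 0.87 and MT2A at -0.35, and no other gene tested lay between the metallothionein genes. Around SLC30A1 on chromosome 1 the median of 40 neighbours was 0.43, above the 0.34 of SLC30A1 itself, and 30 of the 40 were higher in 231-BR cells with an adjusted p under 0.05, against 44.4% of all genes tested. RCOR3 (0.67), TRAF5 (0.58), NEK2 (0.38), LPGAT1 (0.30) and INTS7 (0.33), 5 of the 6 nearest, were all positive, and KCNH1, the sixth, was at 0.05 FPKM or less in 231-BR and at 0.25 to 0.28 FPKM in MDA-MB-231. Around MTF1, also on chromosome 1, the median was 0.35 against 0.10 for MTF1. Its nearest neighbours were MANEAL (0.94), YRDC (-0.08) and C1orf122 (0.44) on one side and INPP5B (0.68), SF3A3 (0.14) and FHL3 (-0.27) on the other. Copy number was not measured, and its part in these values was not tested.

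The genes whose values over the 6 libraries were most like those of MT2A were MAP3K11, NDUFA11, ATP6V0B, CAPN15 and NAA10. Their Euclidean distance from MT2A, on centred log2(FPKM + 0.1) values, was 0.038 to 0.056 among 11412 genes. For MTF1 they were SPATA24, NR1D1, CACNA2D1, NDRG4 and HERC3, at 0.052 to 0.089. With 6 libraries of only 2 lines, the likeness covers a single difference between lines and the scatter of 3 libraries in each.

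Zinc exporters of the SLC30 family, which move zinc out of the cytosol, moved in both directions. Apart from SLC30A1 6 were tested, of which 1 was higher, 3 were lower and 0 were DEGs. Over all genes tested 44.4% were higher, 32.9% lower and 6.45% DEGs. The median log2 fold change was -0.12, against 0.08 for all genes, and 4 were at an unadjusted p under 0.05. SLC30A4 was higher in 231-BR cells, at 1.42 ± 0.168 against 0.507 ± 0.0208 FPKM (SD, n = 3), with a log2 fold change of 1.32 (adjusted p = 2.6e-06). It was 0.68 with a pseudocount of 1, and SLC30A4 is a DEG where 1 FPKM is asked of either line. SLC30A3, named after its values were seen, was at 0.06, 0.02 and 0.04 FPKM in 231-BR, against 0.92, 1.03 and 0.88 FPKM in MDA-MB-231. It reached the test only through MDA-MB-231, so its test supports nothing. The 3 lower genes and the median of this list include SLC30A3, and nothing is read from them. SLC30A6 was lower, at 9.48 ± 0.429 against 13.1 ± 0.713 FPKM (-0.46, adjusted p = 1.8e-05).

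Zinc importers of the SLC39 family, which bring zinc into the cytosol, were divided. Of 11 tested, 5 were higher and 4 lower, against 44.4% and 32.9% of all genes tested. The median was 0.09, against 0.08 for all genes. Of all genes tested 6.45% were DEGs. The only DEG of this list was SLC39A4, whose product ZIP4 is the main intestinal zinc importer. It was at 41.0 ± 2.04 FPKM in 231-BR, against 15.2 ± 0.722 in MDA-MB-231 (SD, n = 3), with a log2 fold change of 1.43 (adjusted p = 1.8e-09). SLC39A11 was at 3.09 ± 0.196 and 1.74 ± 0.328 FPKM (0.81, adjusted p = 0.00017), and at 0.47 under quantile normalization.

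Copper-handling genes, whose products carry the other metal that metallothioneins bind, held 14 tested, with 9 at an unadjusted p under 0.05. Of them 6 were higher, 3 lower and 0 DEGs, against 44.4%, 32.9% and 6.45% of all genes tested. Their median was 0.02, against 0.08 for all genes. Under quantile normalization 3 were higher and 6 lower, and under median-of-ratios scaling 5 and 6, so the balance of directions in this list depends on the scaling. ATP7A, the copper pump, was at 1.06 ± 0.0529 against 0.640 ± 0.0458 FPKM (0.65, adjusted p = 0.00029), a call lost under quantile normalization. SCO1, which delivers copper to cytochrome c oxidase, was at 28.4 ± 1.07 against 19.99 ± 0.172 FPKM (0.50, adjusted p = 3.6e-07).

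Other genes that heavy metals or oxidants induce were mostly lower in 231-BR cells. Of 13 tested 10 were lower and 2 higher, against 32.9% and 44.4% of all genes tested. DEGs were 7, all of them lower, against 1.77% of all genes tested. The median was -1.20 against 0.08 for all genes. HMOX1, which degrades heme, was at 3.81 ± 0.306 against 11.98 ± 0.641 FPKM (-1.63). GCLM, a subunit of the enzyme that starts glutathione synthesis, was at 15.8 ± 0.352 against 55.5 ± 1.42 FPKM (-1.80). NQO1, a quinone reductase, was at 104 ± 3.45 against 269 ± 4.68 FPKM (-1.38), and TXNRD1, a thioredoxin reductase, was at 123 ± 2.997 against 291 ± 3.05 FPKM (-1.24). The sulfiredoxin gene SRXN1 (-1.42), the cystine transporter gene SLC7A11 (-1.20) and the heat shock gene HSPA1A (-1.22) were the others, and HSPA1A has a near-identical copy in HSPA1B, so its reads may be divided. Among the rest, DNAJB1 (0.53) and HSPH1 (0.33) were the 2 higher. HSPB1 (-0.04) did not pass, and GCLC (-0.89), HSPA1B (-0.48) and BAG3 (-0.38) were lower. Heat shock genes of the list thus moved in both directions. MT2A and MT1E had the direction of the 7 DEGs with smaller changes, and MT1X had the opposite direction. Under quantile normalization the log2 fold changes of MT2A and MT1E were only -0.07 and -0.06, and MT2A did not pass the test.

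The glucocorticoid receptor gene NR3C1 and its targets were mostly higher in 231-BR cells. Of 7 tested 6 were higher and 1, NR3C1 itself, was lower (-0.08, adjusted p = 0.049). Over all genes tested 44.4% were higher and 32.9% lower. The median of the list was 0.60, against 0.08 for all genes. Under median-of-ratios scaling 5 were higher and the median was 0.52, against -0.002 for all genes. Under quantile normalization 5 were higher and the median was 0.32, against -0.06 for all genes. SGK1, a kinase, was at 24.6 ± 0.649 against 6.94 ± 0.106 FPKM (1.81), and DUSP1, a phosphatase of MAP kinases, was at 21.8 ± 0.478 against 9.72 ± 0.223 FPKM (1.16). Both were DEGs. KLF9, a transcription factor, was at 1.14 ± 0.182 against 0.247 ± 0.0751 FPKM (1.85, and 0.78 with a pseudocount of 1) and was no DEG because of its level in MDA-MB-231 cells. The calls of NR3C1 and of PER1, a clock gene (0.19, adjusted p = 0.044), were lost in 5 of the 6 fits that left out a library, and both held only without MDA-MB-231 replicate 3. PER1 also lost its call under median-of-ratios scaling, with the replicate block (adjusted p = 0.052) and without a filter, and it turned to -0.13 under quantile normalization (adjusted p = 0.14).

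**Figure D4:**
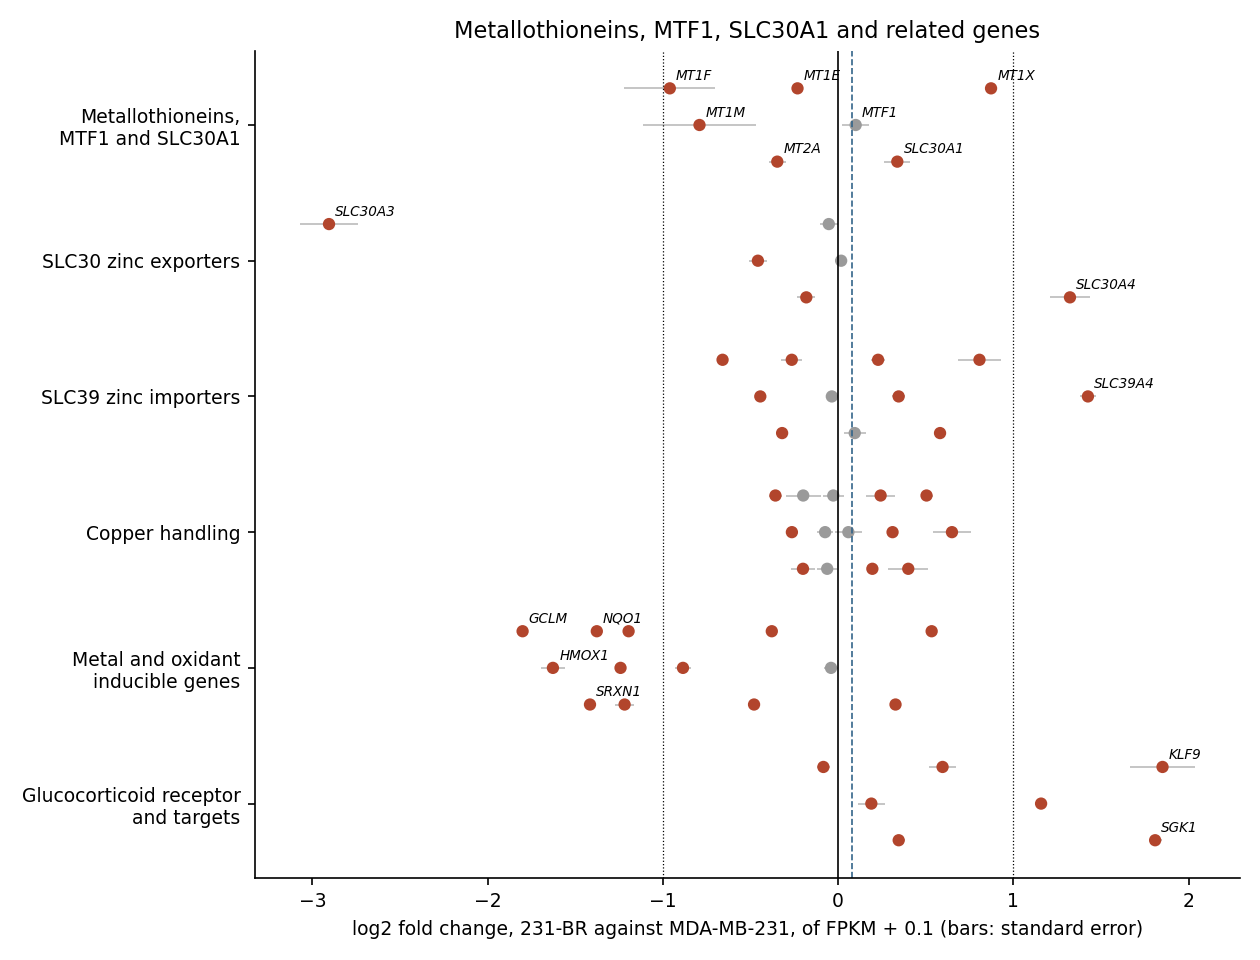
Log2 fold change of 231-BR against MDA-MB-231 (horizontal axis, FPKM + 0.1, bars for the standard error) of the metallothioneins, MTF1, SLC30A1 and the genes of 5 lists, 1 point per gene, with the vertical position within a row of no meaning. Red points have an adjusted p under 0.05, the dashed line is the median of all genes tested (0.08), the dotted lines are -1 and 1, and MT1A, listed at 0 in 231-BR, is not drawn. Most metal and oxidant inducible genes lie left of 0 and most glucocorticoid targets right of it, while MT2A and MT1E lie left and MT1X right. MT2A and SLC30A1 did not pass the test under quantile normalization, and MTF1 changed sign. MT1M and SLC30A3 reached the test only through MDA-MB-231, so their points support nothing.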

How the data were processed

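Gene expression was measured in 3 libraries of each cell line. The authors filtered the reads, aligned them and deposited FPKM per gene with no further normalization. The submitters' processing notes name HISAT2 2.0.4, Bowtie2 2.2.5 and GRCh38.p12, and the program that computed the FPKM is not given in the sources used here. The 6 files of single libraries held the same values as the table of all libraries. Symbols that had turned into dates, 25 in all, were replaced through their identifiers.

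Genes with a mean of at least 0.1 FPKM (13465) were tested on the log2(FPKM + 0.1) scale in limma 3.58.1 under R 4.3.3, using trended eBayes with cell line as the only term, and the Benjamini-Hochberg adjustment covered all of them. The fit was tested on simulated data. Sums, shares and ratios were tested by exact permutation with Python 3.11.15 and SciPy 1.17.1. Promoters and gene order came from RefSeq GRCh38.p14, which held 16798 of the identifiers, and transcripts from GENCODE.

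The members and lists were chosen with earlier results of these data known. The genes named were the 9, the DEGs and the 2 largest changes of each list among genes with a mean of at least 1 FPKM in either line, 3 neighbours on either side, and the 5 genes most like MT2A and MTF1. In addition NR3C1, PER1, SLC30A3, DNAJB1, HSPH1, HSPB1, GCLC, HSPA1B and BAG3 were named after their values were seen. 6 other metallothionein genes were not analysed here. The alternatives were pseudocounts of 1 and 0.01, other filters on low values, a replicate block, each library left out, eBayes without the trend, quantile normalization, median-of-ratios scaling and other DEG thresholds.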

Additional observations from a re-analysis of the deposited data

How the results depend on the processing

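The count of the 9 genes with an adjusted p under 0.05 was 7 as reported, 4 with a filter at a mean of 1 FPKM, which leaves fewer genes to test, and 5 to 7 under the 13 other alternatives. DEGs among them were 0 under each of 16 alternatives, and genes called over the whole table were 9012 to 10702 against 10406. DEGs of the related lists were 10, and 3 at an absolute log2 fold change over 1.5. MTF1 turned to -0.16 under quantile normalization, as did the difference in the share of MT1E, from 0.31 to -0.26 percentage points (exact p = 0.4), and the cause was not tested. The difference in the share of MT1G, which rests on 231-BR replicate 2, was 0 to 0.0020 points when a library was left out, and 0 without that one. With a library left out a permutation test cannot go below 0.2. No pairing of the libraries by replicate number was seen. Deviations from the line means correlated by 0.087, -0.04 and -0.11 for numbers 1, 2 and 3. Not every library correlated best with its own number. These values cannot exclude a pairing in how the libraries were made. With a replicate block 10502 genes were called over the table, and 7 of the 9. Adding further MT1 and MT2 genes to the family sum was not run, since no such gene had a row here. Without counts, the counting error of MT1A, MT1F, MT1G and MT1M is unknown.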
